A study of Mus musculus with 3 samples.

Results

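The Fos and Jun genes encode the AP-1 transcription factors, and all 7 genes of the family were followed in cultured mouse keratinocytes: Fos, Fosb, Fosl1 and Fosl2 on the Fos side and Jun, Junb and Jund on the Jun side. They were taken from a fixed list of names, not by their values, out of 41214 genes counted. All 7 passed the filter of at least 1 CPM, counts per 1000000 of the scaled library size, in at least 1 library, which left 11865 genes to compare. RNA came from 3 cultures of growing epidermal keratinocytes of strain C57BL/6, all immortalised with SV40 with no treatment listed. The labels assign 1 library to an ARPC4 knockout (ARPC4 ko, a line that lacks a subunit of the actin-nucleating Arp2/3 complex), 1 to cells carrying the antioxidant regulator Nrf2 fused to a fluorescent protein (Nrf2-EGFP) and 1 to wild type (wt). The sample titles hold the words Cre for the ARPC4 ko library and High for the Nrf2-EGFP library. How Arpc4 was deleted, which promoter drives the fusion and whether a culture was 1 clone are not stated in the labels or files.

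AP-1 proteins bind DNA as pairs joined through a leucine zipper. Jun proteins can pair with each other or with a Fos protein, whereas Fos proteins need a partner such as Jun. Many of the genes are immediate-early genes, which are switched on within minutes of a growth factor, stress or wound signal through the MAP kinases. In epidermis AP-1 acts on both proliferation and differentiation genes, and mice that lose both Jun and Junb in the epidermis develop a psoriasis-like skin disease. The RNA level measured here does not report the phosphorylation or the stability of these proteins, both of which control AP-1 strongly.

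The promoters of 3 members are shown because their values set the pattern described below: Fosl2 had the most counts, Jun had the lowest ratio to wt of any member (in Nrf2-EGFP), and Fos is the prototype immediate-early member. Each window runs from 250 bases before the RefSeq transcription start to 50 bases from it (GRCm38.p6), and RefSeq windows were matched for 6 of the 7 members, all but Fosl1. The Jund window ends at 70697788, before the GENCODE gene start at 70698949. The Fosl2 window begins at 32136222, after the GENCODE gene start at 32135801, and so lies within the gene as GENCODE places it. Capitals mark matches to the motifs searched. The Fos window is chr12:85473640-85473939 on the plus strand, the Fosl2 window chr5:32136222-32136521 on the plus strand and the Jun window chr4:95052173-95052472 on the minus strand.
Fos: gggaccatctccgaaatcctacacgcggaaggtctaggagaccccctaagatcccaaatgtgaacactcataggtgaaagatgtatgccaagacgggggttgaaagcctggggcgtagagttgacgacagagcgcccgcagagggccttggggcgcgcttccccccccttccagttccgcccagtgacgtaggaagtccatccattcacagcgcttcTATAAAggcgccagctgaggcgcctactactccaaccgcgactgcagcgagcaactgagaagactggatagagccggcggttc
Fosl2: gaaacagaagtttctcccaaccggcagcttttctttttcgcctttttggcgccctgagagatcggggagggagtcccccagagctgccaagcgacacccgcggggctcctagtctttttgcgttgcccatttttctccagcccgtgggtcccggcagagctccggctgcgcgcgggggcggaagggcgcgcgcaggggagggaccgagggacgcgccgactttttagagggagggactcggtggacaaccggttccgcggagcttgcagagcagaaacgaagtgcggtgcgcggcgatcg
Jun: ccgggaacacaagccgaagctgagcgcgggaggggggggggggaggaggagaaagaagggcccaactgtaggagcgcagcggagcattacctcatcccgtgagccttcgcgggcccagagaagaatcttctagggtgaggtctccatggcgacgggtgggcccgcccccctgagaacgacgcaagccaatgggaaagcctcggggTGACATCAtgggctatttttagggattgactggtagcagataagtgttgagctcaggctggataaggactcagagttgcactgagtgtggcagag
The motifs were searched on both strands in all 6 windows. The AP-1 site TGANTCA matched in 0 of them, against 7.81% of 32851 mouse promoter windows of the same length, and the cyclic AMP element TGACGTCA matched in 0, against 1.79%. The variant TGACATCA, known in the Jun promoter as a site that Jun and Atf2 bind, matched in Jun with its first base 45 bases before the start and in 3.62% of all windows. The TATA core TATAAA matched in Fos, 33 bases before the start, in Junb at the RefSeq start itself and in 13.6% of all windows. GENCODE places the Junb start at 84978718 on the minus strand, downstream of the RefSeq start. By GENCODE the Junb match thus lies before the start. The CArG box, the element bound by serum response factor, matched in none of the 6 and in 1.63% of all windows. These are matches of letters within short windows only. An element more than 250 bases before the RefSeq start was outside the search. For Jund and Fosl2 the windows also miss the bases just before the GENCODE start. The absence of a match therefore does not show that a gene lacks the element.

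The libraries held 23033863 (ARPC4 ko), 25723959 (Nrf2-EGFP) and 22924294 (wt) gene counts. With 1 library per genotype there is no spread between cultures to test against. Ratios are therefore given with exact 95% intervals that cover counting error only, no p-value is given, and a gene passed the size rule where it differed at least 2-fold on the scale of CPM + 0.5 and its interval excluded 1. Arpc4 itself was at 61.0 CPM in the library labelled ARPC4 ko, against 94.2 CPM in wt, and Nfe2l2, which encodes Nrf2, was at 166.4 CPM in the library labelled Nrf2-EGFP, against 224.7 CPM in wt. Arpc4 was at 98.4 CPM in Nrf2-EGFP, so it was lowest in the library labelled ARPC4 ko, though not absent there. Nfe2l2 was at 179.5 CPM in ARPC4 ko, so it was below wt in both labelled lines and does not mark the Nrf2-EGFP library. Directions below belong to the libraries so labelled. All 10 keratinocyte markers passed the filter, at summed levels of 13975 (ARPC4 ko), 18533 (Nrf2-EGFP) and 24217 CPM (wt). Of 8 fibroblast markers 6 had no count in any library, and the summed levels of fibroblast, immune, melanocyte and endothelial markers stayed between 1.07 and 6.29 CPM per list. The lower keratinocyte sum lay mainly in Krt5 and Krt14, but in ARPC4 ko most of the markers were lower. There 2 of 10 lay above wt (48.5% of all genes), 2 passed as lower (2.06%) and the median log2 fold was -0.34. In Nrf2-EGFP 5 lay above wt (50.5% of all genes), none passed and the median was -0.003. The part of these differences in the AP-1 results was not tested.

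Fosl2 was the member with the most counts in every library and the one whose ratios had the narrowest intervals. Fosl2 (FRA-2, a Fos protein without the strong transactivation domain of Fos; ENSMUSG00000029135, chromosome 5, 32135801 to 32157842, plus strand) had 261.1 CPM in ARPC4 ko, 218.6 CPM in Nrf2-EGFP and 171.7 CPM in wt. Both labelled lines were thus above wt, with ARPC4 ko the highest. The ratio to wt was 1.52 in ARPC4 ko (1.46 to 1.58) and 1.27 in Nrf2-EGFP (1.22 to 1.33), and ARPC4 ko was 1.19-fold above Nrf2-EGFP (1.15 to 1.24). In ARPC4 ko, 11.9% of all genes compared had a higher ratio to wt, and in Nrf2-EGFP 17.8%, so the difference was not extreme. The narrow intervals reflect the many counts and leave out the spread between cultures. Fosl2 did not pass the 2-fold rule in either comparison. In bulk RNA such as this, fewer cells that express a gene and less of its RNA per cell cannot be told apart.

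The other Fos genes had fewer counts. Fosl1 (FRA-1, the member tied to migrating and transformed epithelial cells; ENSMUSG00000024912, chromosome 19, 5447547 to 5455946, plus strand) had 51.7 CPM in ARPC4 ko, 47.2 CPM in Nrf2-EGFP and 44.8 CPM in wt. Its ratio to wt was 1.15 in ARPC4 ko (1.06 to 1.26) and 1.05 in Nrf2-EGFP (0.97 to 1.15). It therefore differed little, and the Nrf2-EGFP library could not be told from wt at this depth.
Fos (the cellular counterpart of a viral oncogene and a classic immediate-early gene; ENSMUSG00000021250, chromosome 12, 85473890 to 85477273, plus strand) had 204 counts in ARPC4 ko, 144 in Nrf2-EGFP and 151 in wt, or 8.39, 5.80 and 6.71 CPM. The ARPC4 ko library was the highest and the other two were close. The ratio of ARPC4 ko to wt was 1.25 (1.01 to 1.55), that of Nrf2-EGFP to wt 0.86 (0.68 to 1.09), and that of ARPC4 ko to Nrf2-EGFP 1.45 (1.16 to 1.81). Fosb (also an immediate-early gene; ENSMUSG00000003545, chromosome 7, 19302696 to 19310051, minus strand) was the least abundant member, with 63 counts in ARPC4 ko, 53 in Nrf2-EGFP and 36 in wt. Its ratio to wt was 1.62 in ARPC4 ko (1.06 to 2.51) and 1.33 in Nrf2-EGFP (0.86 to 2.1). These wide intervals come from few counts, and the ratio of ARPC4 ko to Nrf2-EGFP, 1.21 (0.83 to 1.79), included 1.

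**Figure D1:**
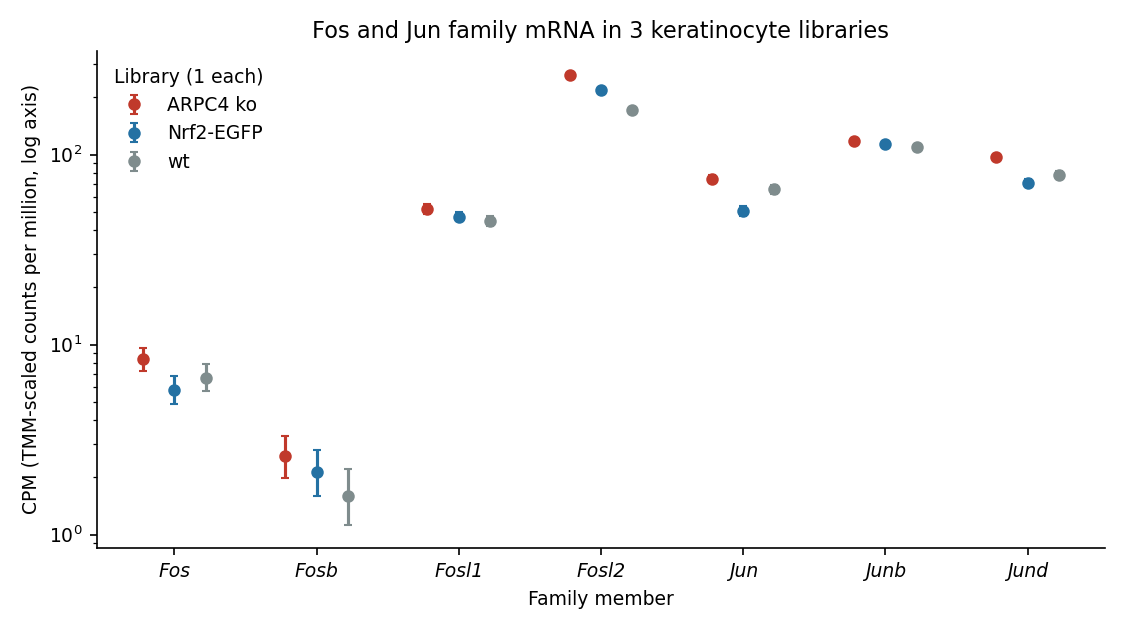
CPM of each Fos and Jun family gene (x axis) in the ARPC4 ko, Nrf2-EGFP and wt libraries, on a log axis, with bars for the exact 95% counting interval of the 1 library. By CPM, which does not correct for transcript length, Fosl2 is the highest member in all 3 libraries, and Fos and Fosb lie far below the rest.

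Jun and Jund were above wt in ARPC4 ko and below it in Nrf2-EGFP, with intervals that excluded 1 on each side. Jun (the strongest activator of the Jun proteins and a target of the JNK kinases; ENSMUSG00000052684, chromosome 4, 95049034 to 95052222, minus strand) had 74.2 CPM in ARPC4 ko, 50.5 CPM in Nrf2-EGFP and 65.7 CPM in wt. ARPC4 ko was slightly above wt and Nrf2-EGFP below it. The ratio of ARPC4 ko to wt was 1.13 (1.05 to 1.21), Nrf2-EGFP was 1.30-fold lower than wt (1.21 to 1.40), and ARPC4 ko was 1.47-fold higher than Nrf2-EGFP (1.37 to 1.58).
Jund (a broadly expressed member bound by the tumour suppressor menin; ENSMUSG00000071076, chromosome 8, 70698949 to 70700616, plus strand) had 97.2 CPM in ARPC4 ko, 70.8 CPM in Nrf2-EGFP and 78.1 CPM in wt. Its order over the libraries was that of Jun. The ratio of ARPC4 ko to wt was 1.24 (1.17 to 1.32), Nrf2-EGFP was 1.1-fold lower than wt (1.03 to 1.18), and ARPC4 ko was 1.37-fold higher than Nrf2-EGFP (1.29 to 1.46). Junb (a weaker activator that can counteract Jun; ENSMUSG00000052837, chromosome 8, 84974484 to 84978718, minus strand) had 117.9 CPM in ARPC4 ko, 114.0 CPM in Nrf2-EGFP and 109.4 CPM in wt. It was the member that differed least: its ratio to wt was 1.08 in ARPC4 ko (1.02 to 1.14) and 1.04 in Nrf2-EGFP (0.99 to 1.1), and between those 2 libraries it was 1.03 (0.98 to 1.09).

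No member passed the 2-fold rule in any of the 3 comparisons, in which 6.76% (ARPC4 ko against wt), 5.61% (Nrf2-EGFP against wt) and 2.98% (ARPC4 ko against Nrf2-EGFP) of all genes compared did in either direction. In ARPC4 ko against wt all 7 ratios were above 1, as were 48.5% of all genes, and for all 7 the counting interval lay above 1, as it did for 31.6% of all genes. The 7 ratios ran between 1.08 and 1.62, and 2 members, Fosb and Fosl2, were at least 1.5-fold higher, as were 12.4% of all genes. In Nrf2-EGFP against wt 4 ratios were above 1, as were 50.5% of all genes, and 3 below. There the interval lay above 1 for 1 member, Fosl2 (32.1% of all genes), and below 1 for 2, Jun and Jund (30.8% of all genes). In ARPC4 ko against Nrf2-EGFP all 7 ratios were again above 1, as were 47.1% of all genes, and the interval lay above 1 for 5 (23.6% of all genes), all but Fosb and Junb. The median log2 fold of the members was 0.30, 0.06 and 0.26 in the 3 comparisons, against -0.01, 0.00 and -0.02 over all genes. The comparisons share libraries, so these counts are not independent of each other.

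**Figure D2:**
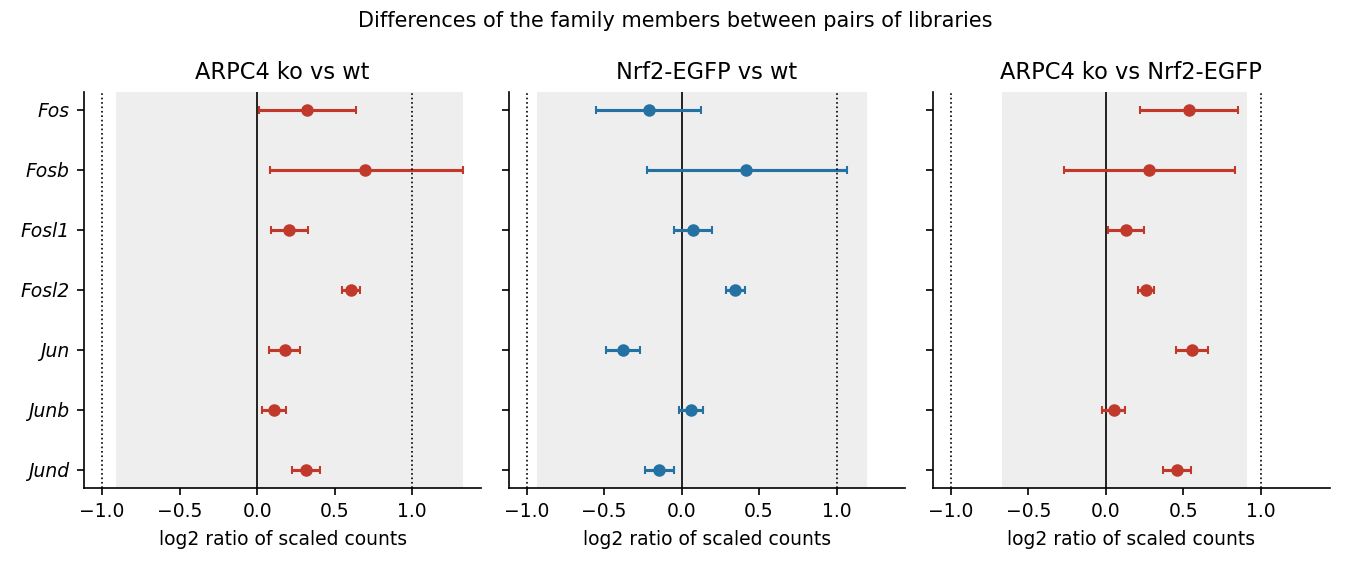
Log2 ratio of scaled counts (x axis) for each member, in a panel for each pair of libraries (ARPC4 ko and Nrf2-EGFP each against wt, then against each other), with exact 95% counting intervals. Grey bands hold the central 95% of the log2 folds of CPM + 0.5 over all genes compared and dotted lines mark 2-fold: every member lies within both, and the widest intervals are those of Fosb.

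Summed over the family, AP-1 genes had 14905 counts in ARPC4 ko, 12646 in Nrf2-EGFP and 10748 in wt, or 613.1, 508.9 and 478.0 CPM. The sum was 1.28-fold higher in ARPC4 ko than in wt (1.25 to 1.32), but 1.15-fold higher (1.11 to 1.19) when Fosl2 was left out. In Nrf2-EGFP the sum was 1.06-fold that of wt (1.04 to 1.09), and without Fosl2 its ratio to wt was 0.95 (0.92 to 0.98). Much of the difference from wt in summed counts was thus in Fosl2, but a sum of counts gives more weight to long transcripts. Between ARPC4 ko and Nrf2-EGFP this was not so. There the ratio of the sums was 1.20 (1.18 to 1.23) with all 7 members and 1.21 (1.17 to 1.25) without Fosl2. Fosl2 has the longest summed exons of the family (9680 bases). Per kilobase of summed exons (RPKM) Fosl2 was at 27.0 in ARPC4 ko and 17.7 in wt, and Jund at 58.3 and 46.8. For the 4 Fos genes together the ratio to wt was 1.44 in ARPC4 ko (1.39 to 1.49) and 1.22 in Nrf2-EGFP (1.17 to 1.26). For the 3 Jun genes together the ratio to wt was 1.14 in ARPC4 ko (1.1 to 1.18) and 0.93 in Nrf2-EGFP (0.90 to 0.96).

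Shares within the family do not depend on how the libraries were scaled. Fosl2 made up 42.6% of the family's counts in ARPC4 ko (41.8 to 43.4), 42.9% in Nrf2-EGFP (42.1 to 43.8) and 35.9% in wt (35.0 to 36.8; exact binomial 95% intervals). The 2 labelled lines had overlapping intervals and both lay above wt. The 4 Fos genes together made up 52.8% in ARPC4 ko (52.0 to 53.6), 53.8% in Nrf2-EGFP (52.9 to 54.7) and 47.0% in wt (46.1 to 48.0). Jun made up 12.1% in ARPC4 ko (11.6 to 12.6), 9.92% in Nrf2-EGFP (9.41 to 10.5) and 13.7% in wt (13.1 to 14.4), so its share was lower in both lines than in wt, although in ARPC4 ko its CPM was higher. Junb had 19.2% in ARPC4 ko (18.6 to 19.9), 22.4% in Nrf2-EGFP (21.7 to 23.1) and 22.9% in wt (22.1 to 23.7), which set ARPC4 ko apart from the other two. Jund had 15.8% in ARPC4 ko (15.3 to 16.4), 13.9% in Nrf2-EGFP (13.3 to 14.5) and 16.3% in wt (15.6 to 17.1), with Nrf2-EGFP the lowest. Fosl1 stayed between 8.43% and 9.37%, Fos between 1.14% and 1.40% and Fosb between 0.33% and 0.42%.

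Ratios between members within a library showed the same balance. There were 3.52 Fosl2 counts for each Jun count in ARPC4 ko, 4.33 in Nrf2-EGFP and 2.61 in wt. The Fosl2 to Jun ratio was therefore 1.34-fold higher in ARPC4 ko than in wt (1.24 to 1.46) and 1.66-fold that of wt in Nrf2-EGFP (1.52 to 1.81). The Fosl2 to Junb ratio was above that of wt by 1.41-fold in ARPC4 ko (1.32 to 1.51) and by 1.22-fold in Nrf2-EGFP (1.14 to 1.31). Between the 2 Fos-like antigens, Fosl1 to Fosl2, the ratio was 1.32-fold lower in ARPC4 ko (1.20 to 1.44) and 1.21-fold lower in Nrf2-EGFP (1.1 to 1.33) than in wt. Jun to Junb was 1.36-fold lower in Nrf2-EGFP than in wt (1.23 to 1.49), and 1.42-fold higher in ARPC4 ko than in Nrf2-EGFP (1.30 to 1.55). Of the 21 pairs of members, 6 between ARPC4 ko and wt, 11 between Nrf2-EGFP and wt and 9 between ARPC4 ko and Nrf2-EGFP had an interval that excluded 1. The share for pairs of other genes was not computed, so these counts are a description only.

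**Figure D3:**
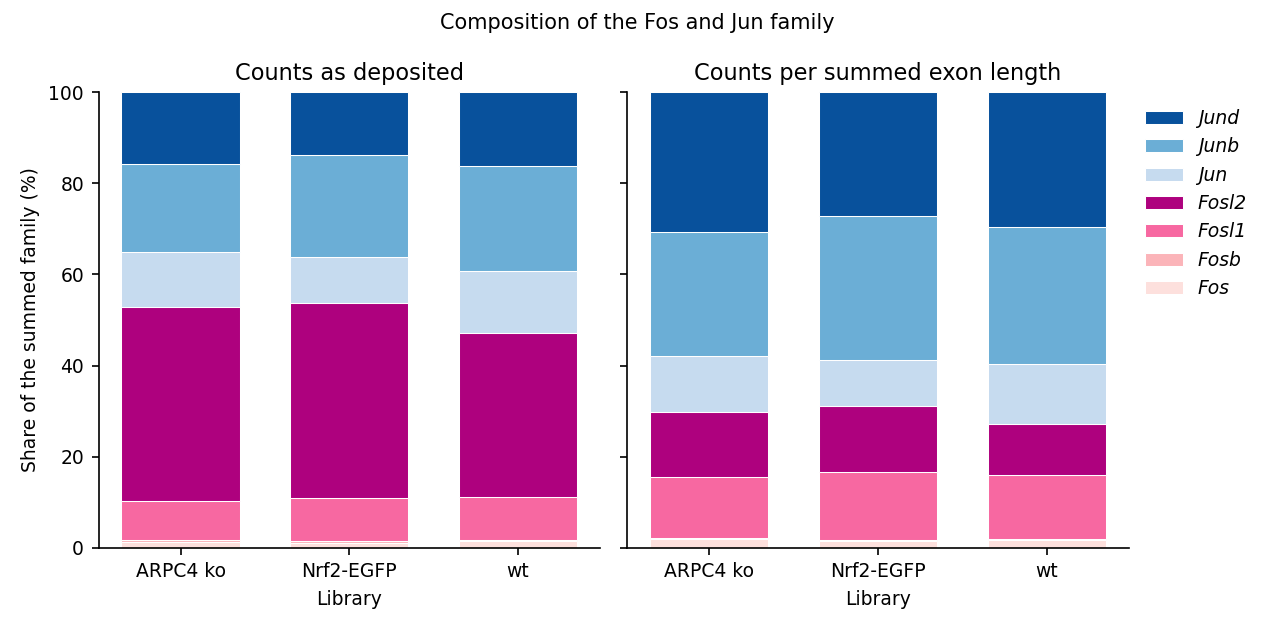
Share of each member in the summed family (y axis, percent) in the ARPC4 ko, Nrf2-EGFP and wt libraries, from counts as deposited (left) and from counts divided by summed exon length (right). On the left Fosl2 takes 42.6%, 42.9% and 35.9%, and on the right the Jun genes take most of each bar.

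Counts rise with transcript length, and members can be ranked against each other only per length. Fosl2 has the longest summed exons of the family (9680 bases, GENCODE M21) and Jund the shortest (1668 bases); Jun and Jund are genes of a single exon. Per kilobase of summed exons (RPKM), Jund and Junb led with 58.3 and 51.3 in ARPC4 ko, 42.4 and 49.5 in Nrf2-EGFP and 46.8 and 47.5 in wt. Jund was thus above Junb in ARPC4 ko and below it in Nrf2-EGFP, and in wt their intervals overlapped. Fosl2 had 27.0, 22.6 and 17.7 RPKM in ARPC4 ko, Nrf2-EGFP and wt, Fosl1 25.4, 23.2 and 22, and Jun 23.3, 15.8 and 20.6. Fosl2 and Fosl1 were neighbours with overlapping intervals in ARPC4 ko and Nrf2-EGFP, whereas in wt Fosl2 was below both Fosl1 and Jun, which overlapped. Fos had 3.57, 2.46 and 2.85 RPKM and Fosb 0.42, 0.34 and 0.26 RPKM, the lowest members in every library. Divided by the longest coding transcript instead, Junb led in every library (65.2, 63.0 and 60.4 RPKM in ARPC4 ko, Nrf2-EGFP and wt), with Jund next (58.3, 42.4 and 46.8) and Fosl2 after it (39.9, 33.4 and 26.3). By that measure ARPC4 ko has Junb above Jund, so that order depends on the length used. The rank of Fosl2 in wt depends on it too: per coding transcript Fosl2 (26.3) was above Fosl1 (24.0) and Jun (20.6). Per summed exon length the Fos genes held 29.8% of the family in ARPC4 ko, 31.1% in Nrf2-EGFP and 27.2% in wt, lower than by counts but in the same order over the libraries.

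Several members share bases with a gene on the opposite strand. Junb ends within 351 bases of Prdx2, a peroxiredoxin with 4558 (ARPC4 ko), 4901 (Nrf2-EGFP) and 3965 counts (wt), and Fosl1 overlaps Ccdc85b over 2767 bases, which had between 120 and 124 counts. The antisense genes Junos at Jun and Gm11175 at Jund had at most 7 counts in any library. Libraries were strand-specific, but no source used here states whether the counting used strand. The overlapping reads of Junb and Fosl1 are therefore uncertain.

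Likeness of pattern was measured as the distance of the log2 folds in ARPC4 ko and Nrf2-EGFP against wt, over the 3 libraries, for Fosl2, whose log2 fold of CPM + 0.5 was the largest of the family at 0.60 (at a pseudocount of 0.1 CPM it was 0.60, against 0.66 for Fosb). Among 8463 genes with at least 10 CPM in every library the nearest were Tsc2, with ratios to wt of 1.52 in ARPC4 ko and 1.29 in Nrf2-EGFP, Twsg1, with 1.53 and 1.26, and Arl6, with 1.56 and 1.27. A total of 60 genes lay within 0.1 of Fosl2 by this distance.

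Genes around AP-1 differed unevenly. The other bZIP factors that can pair with Jun or Fos proteins had 1 of 11 measured members higher by the 2-fold rule and 2 lower in each line against wt, with medians of -0.06 in ARPC4 ko and 0.00 in Nrf2-EGFP (4.70% and 3.57% of all genes were higher by the rule, and 2.06% and 2.05% lower). Batf3, a Jun partner best known from dendritic cells, was the higher one, with 41 counts in ARPC4 ko and 37 in Nrf2-EGFP, against 3 in wt, which gives ratios to wt of 12.6 (4.03 to 63.8) and 11.2 (3.53 to 56.6). The transcription factor Maf, one of the lower ones, was 2.33-fold lower in ARPC4 ko (1.94 to 2.80) and 2.37-fold lower in Nrf2-EGFP (1.97 to 2.85) than in wt. The small factor Maff had ratios to wt of 1.54 and 1.61 in ARPC4 ko and Nrf2-EGFP. Atf4, the stress factor, had ratios of 0.51 and 0.67. Neither Maff nor Atf4 passed.

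Regulators of Fos and Jun transcription and of protein turnover held no member past the rule. Of all genes, 6.76% (ARPC4 ko) and 5.61% (Nrf2-EGFP) passed it against wt in either direction. For the 10 measured regulators, which include serum response factor and its partners, the median log2 fold was -0.01 in ARPC4 ko and -0.05 in Nrf2-EGFP. Elk3, a ternary complex factor, had the largest ratios of that list, 1.41 (1.33 to 1.49) in ARPC4 ko and 1.67 (1.58 to 1.76) in Nrf2-EGFP. Mrtfa and Mrtfb, actin-regulated cofactors of serum response factor, had ratios of 1.15 and 1.09 in ARPC4 ko and 1.25 and 1.20 in Nrf2-EGFP, and Creb1 and Mef2a lay between 0.77 and 0.82. For the 7 turnover genes and cofactors the medians were -0.29 and -0.21. Det1, part of a ubiquitin ligase for Jun, was 1.83-fold lower in ARPC4 ko (1.58 to 2.13) and 1.55-fold lower in Nrf2-EGFP (1.35 to 1.79). Its partner Cop1 had a ratio of 0.82 in each line, Cops5 (a Jun coactivator in the COP9 signalosome) 0.72 and 0.81, Fbxw7 (a ubiquitin ligase subunit that recognises Jun) 0.81 and 0.86, and Men1 (menin) 1.11 and 1.20.

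In the MAP kinase cascades 3 of 22 members passed as higher in each line against wt and none as lower. Over all genes compared, 4.70% (ARPC4 ko) and 3.57% (Nrf2-EGFP) passed as higher. The medians of the list were 0.14 in ARPC4 ko and 0.11 in Nrf2-EGFP. Mapk12, a p38 kinase, was 3.75-fold higher in ARPC4 ko (2.90 to 4.89) and 3.78-fold higher in Nrf2-EGFP (2.93 to 4.93), and Mapk11, also a p38 kinase, 2.5-fold (2.16 to 2.90) and 2.25-fold (1.94 to 2.62). Mapk13, the p38 form known from keratinocytes, passed in ARPC4 ko with 2.53-fold (2.20 to 2.91) and did not in Nrf2-EGFP, with 1.8-fold (1.56 to 2.09). Mapk10, a JNK kinase of mainly neural tissue, passed in Nrf2-EGFP, with 12 counts in ARPC4 ko, 47 in Nrf2-EGFP and 8 in wt. Rps6ka2, a ribosomal S6 kinase, had ratios of 1.40 and 1.71 without passing.

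Feedback inhibitors of MAP kinases had 5 of 14 members higher in ARPC4 ko, 2 in Nrf2-EGFP and none lower, with medians of 0.53 and 0.48. The share of all genes that passed as higher was 4.70% in ARPC4 ko and 3.57% in Nrf2-EGFP. Dusp6, the phosphatase of ERK, was 2.63-fold higher in ARPC4 ko (2.43 to 2.83) and 2.34-fold in Nrf2-EGFP (2.17 to 2.53). Dusp10, a phosphatase of p38 and JNK, was 2.65-fold (2.36 to 2.98) and 2.64-fold (2.35 to 2.97) higher. The receptor feedback genes Spry1, Spry4 and Spred3 passed in ARPC4 ko, with 2.20-fold (1.83 to 2.65), 3.01-fold (1.95 to 4.77) and 2.37-fold (1.72 to 3.30), and had ratios of 1.79, 1.84 and 1.73 in Nrf2-EGFP. Of 15 other immediate-early genes, none passed in ARPC4 ko (median 0.04), and 2 passed as higher and none as lower in Nrf2-EGFP (median 0.11). These were the matricellular genes Ccn2, 3.97-fold (3.58 to 4.41), and Ccn1, 2.80-fold (2.67 to 2.94), which had ratios of 1.86 and 1.97 in ARPC4 ko. Btg2, an antiproliferative gene, had ratios of 1.89 in ARPC4 ko and 0.79 in Nrf2-EGFP, Ier3 1.64 and 1.5, and Zfp36, which destabilises cytokine messages, 0.58 and 0.61.

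Genes known as AP-1 targets were listed by kind, as protease, growth and cytokine genes or as differentiation genes. The lists were chosen with earlier results of these data known, so a difference between them is a description only. Of 15 measured protease, growth and cytokine targets, 7 passed as higher in each line against wt and none as lower. Among all genes 4.70% (ARPC4 ko) and 3.57% (Nrf2-EGFP) passed as higher. The medians of these targets were 0.61 in ARPC4 ko and 0.95 in Nrf2-EGFP. The 6 targets that passed in both lines were Mmp3, Mmp10 and Mmp13 (matrix metalloproteinases), Plau (urokinase), Csf2 and Ccl2. Plau had 10740 counts in ARPC4 ko, 9858 in Nrf2-EGFP and 4374 in wt, and was 2.27-fold (2.19 to 2.35) and 2.04-fold (1.97 to 2.11) higher than in wt. Mmp10 was 3.55-fold (2.44 to 5.27) and 2.84-fold (1.94 to 4.26) higher, and Mmp13 had 729, 246 and 58 counts in the same order of libraries. Mmp3 had 147, 42 and 3 counts, Csf2 136, 90 and 12, and Ccl2 2477, 702 and 103. Spp1 (osteopontin) passed in ARPC4 ko, at 3.41-fold (2.75 to 4.27), with a ratio of 0.70 in Nrf2-EGFP. Timp1, the metalloproteinase inhibitor, passed in Nrf2-EGFP, at 3.27-fold (2.94 to 3.66), with a ratio of 1.48 in ARPC4 ko.
Of 6 measured differentiation targets, 4 passed as lower and 1 as higher in ARPC4 ko and 3 as lower in Nrf2-EGFP, with medians of -1.41 and -1.38. Among all genes 2.06% (ARPC4 ko) and 2.05% (Nrf2-EGFP) passed as lower. Sprr1b had 93 counts in ARPC4 ko and 261 in Nrf2-EGFP, against 1426 in wt, and Sprr1a 80 and 62, against 223. Ivl (involucrin, whose promoter is a textbook AP-1 target) was 2.91-fold lower in ARPC4 ko (2.15 to 4.0) and had a ratio of 0.48 in Nrf2-EGFP (0.36 to 0.63), which missed the rule once 0.5 CPM was added. Krt1, an early suprabasal keratin, had 1 count in ARPC4 ko, 0 in Nrf2-EGFP and 30 in wt: the ratio of ARPC4 ko to wt was 0.031 (0.00076 to 0.19), and Nrf2-EGFP was at least 11.0-fold lower at a floor of 3 counts. Tgm1, a transglutaminase, was the higher one, at 2.30-fold in ARPC4 ko (1.99 to 2.67), with 1.34 in Nrf2-EGFP. Of the genes named here that passed in 1 line only, Mapk10, Ccn2, Timp1 and Spp1 also passed between ARPC4 ko and Nrf2-EGFP, where 2.98% of all genes did, and Mapk13, Spry1, Spry4, Spred3, Ccn1, Ivl and Tgm1 did not.

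**Figure D4:**
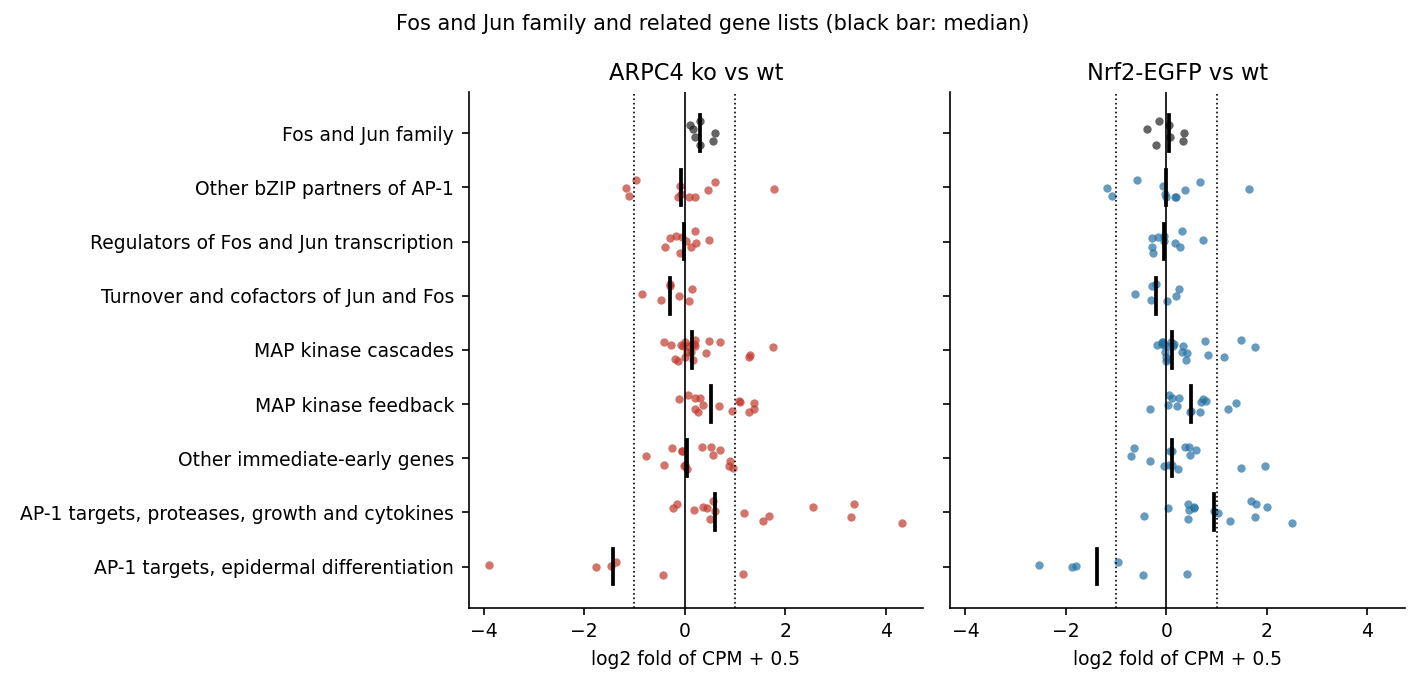
Log2 fold of CPM + 0.5 (x axis) of each measured gene in the Fos and Jun family and in 8 related lists (rows), for ARPC4 ko against wt (left) and Nrf2-EGFP against wt (right), with a black bar at each median and dotted lines at 2-fold. The family lies within 2-fold in both panels, while target genes extend beyond it on either side. Other bZIP factors do so too, and some MAP kinase and feedback genes lie beyond it on the higher side.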

How the data were processed

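Raw counts of reads per Ensembl gene were deposited by the authors, 1 table per library and 41214 genes each, with no normalisation. Per the labels' protocols, RNA was extracted with TRIzol, made into stranded mRNA libraries and read for 65 bases from one end. The tools, per the submitters' processing notes, were HTSeq, Bowtie 1.1 and TopHat2 2.1.0 on build mm10; no source used here states their settings or annotation. Rows that name no gene (8.22% to 9.08% of entries, mostly alignments that were not unique) stayed out of library sizes.

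Symbols, positions and lengths came from GENCODE M21 (GRCm38), matched by identifier (40254 found). Promoter sequences came from RefSeq (GRCm38.p6). Libraries were scaled with TMM (edgeR 4.0.16, R 4.3.3), and CPM are counts per 1000000 of that scaled size. Genes with at least 1 CPM in any library were compared. Ratios are of scaled counts without a pseudocount, and the log2 fold adds 0.5 CPM, which understates differences of low genes. Intervals of ratios are exact (Clopper-Pearson, conditional on the sum; Fisher's conditional odds ratio for pairs of members; SciPy 1.17.1) and, like the floor of 3 counts, leave out all but counting error, since without molecular identifiers a read need not be a separate molecule. The size rule and the ratio intervals were tested on simulated counts with counting error only and planted differences larger than 2-fold. Shares, pairs of members, lengths and motifs were not tested in this way.

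The members, lists and alternatives were chosen with earlier results of these data known. All members were named, and in each list the 5 measured genes with the largest log2 fold in size in either line against wt, plus all past the rule where these were at most 8; 1 gene that met this rule is not reported here. Tsc2, Twsg1 and Arl6 follow the rule of the 3 nearest genes. Alternatives were other scalings (total counts, DESeq2 1.42.0 size factors, upper quartile), pseudocounts, filters and lengths.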

Additional observations from a re-analysis of the deposited data

How the results depend on the processing

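No paired analysis was possible because each genotype has 1 library, and for the same reason no replicate could be left out. No member passed the 2-fold rule in any comparison under the other scalings and pseudocounts, and none with an interval off 1 changed direction. The number of members with a ratio above 1 was unchanged under the 3 other scalings, which were chosen for this count after seeing the data. In ARPC4 ko against Nrf2-EGFP the interval lay above 1 for 6 members, not 5, with scaling by total counts or by upper quartile. Scaling by total counts moved the median log2 fold of all genes to 0.09 in ARPC4 ko against wt and to 0.11 in ARPC4 ko against Nrf2-EGFP, and that of Fosl2 in ARPC4 ko against wt to 0.71. It also brought the medians of the bZIP partners, regulators, turnover genes, MAP kinase cascades and other immediate-early genes in ARPC4 ko against Nrf2-EGFP above 0 (0.10, 0.08, 0.01, 0.06 and 0.07), and those of the bZIP partners and regulators in ARPC4 ko against wt (0.04 and 0.09). A filter of 10 CPM, which tests fewer genes, turned the medians of the differentiation and protease targets in ARPC4 ko against Nrf2-EGFP to -0.29 (2 genes) and -0.14 (12 genes). The medians of the bZIP partners and regulators also changed sign in other comparisons or settings, to values between -0.02 and 0.03. Over all genes, the count past the 2-fold rule was 454 (ARPC4 ko against wt), 362 (Nrf2-EGFP against wt) and 147 (ARPC4 ko against Nrf2-EGFP) with a pseudocount of 2 CPM, which shrinks the folds of low genes, and 374, 334 and 114 with the 10 CPM filter, against 802, 666 and 353. At the pseudocount of 2 CPM the differentiation targets had medians of -0.87 in ARPC4 ko and -0.75 in Nrf2-EGFP. Per summed exon length the Fos genes held 29.8% (ARPC4 ko), 31.1% (Nrf2-EGFP) and 27.2% (wt) of the family, and per longest coding transcript, a length chosen after seeing the data, 33%, 33.9% and 29.7%, since Fosl2 is long. Depth limits Fos and Fosb most, with 36 to 204 counts per library.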
